A study of Homo sapiens with 8 samples.

Results

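Open chromatin was followed across a 5 Mb stretch of the short arm of human chromosome 2, chr2:50000001-55000000 (hg38), that holds SPTBN1, the gene of beta-II spectrin. A peak belonged to the stretch when its midpoint lay between these positions, and 290 of the 159451 peaks of the matrix did. The stretch was chosen by its measured CPM in paclitaxel-resistant minus control and dual-resistant minus control cells, in which distal peaks were high and promoters were not. Values of those lines minus control are therefore given here as a description, with no test. At the upper edge the last peak inside began at position 54989275, with 1.60 CPM in dual-resistant cells and 0.584 CPM in control cells. The first peak beyond it began at 54999546, with 1.52 CPM in dual-resistant cells and 1.23 CPM in control cells. CPM are the reads in a peak after each library is scaled to the same total over all peaks.

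Beta-II spectrin is the widely expressed beta subunit of the spectrin tetramers that line the inner face of the plasma membrane, where ankyrins, adducins and proteins of the 4.1 family tie them to membrane proteins and actin. In mice it is also known as an adaptor of SMAD proteins in TGF-beta signalling. ATAC-seq reads where the transposase Tn5 can cut, and so marks nucleosome-poor DNA at promoters, at the start of genes, and at distal elements such as enhancers, which lie inside or between genes. Accessibility is not expression, and no RNA level is reported here.

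The ovarian cancer line A2780, an established human cell line, was compared with drug-resistant derivatives of it, with 2 libraries in each of 4 groups. The groups were cisplatin-resistant A2780, paclitaxel-resistant A2780, A2780 resistant to both cisplatin and paclitaxel (dual-resistant below) and control A2780. All carry the same genotype label, WT. The treatment label names cisplatin, paclitaxel or both drugs for the resistant lines and no drug for control. The sources used here do not state whether drug was present at harvest or whether a line is a single clone. Cisplatin crosslinks DNA, and paclitaxel stabilises microtubules. No label ties the libraries of a group to separate cultures, so p-values measure only the spread between libraries, which may be technical.

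Between 7693492 and 9304798 reads lay in peaks of a library, and 1 read was worth 0.107 to 0.130 CPM. With 0 reads in a library, a true level as high as 0.322 to 0.390 CPM (3 reads) was still possible, a limit for counting error alone since PCR copies are not independent molecules. Of the epithelial and ovarian marker genes PAX8, WT1, EPCAM, KRT8, KRT18 and CDH1, 6 of 6 had a promoter peak, with EPCAM between 8.13 and 14.8 CPM over the 8 libraries. Of the blood, endothelial and liver markers, PTPRC, PECAM1, CDH5 and ALB had no promoter peak, and CD3E reached at most 3.96 CPM. The 290 peaks held 7258 and 7021 reads in cisplatin-resistant libraries, 10923 and 11811 in paclitaxel-resistant libraries, 14217 and 14927 in dual-resistant libraries and 5021 and 5157 in control libraries. All 290 had at least 1 CPM in at least 2 libraries and entered the tests.

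Each peak was 1001 bp long, and no peaks of the stretch overlapped. A peak within 1 kb of an annotated start of a protein-coding gene was called a promoter peak, which 13 were. Starts of other genes were not used for this, and 8 peaks within 1 kb of such a start count as distal, of which 3 were 2-fold higher than control in both the paclitaxel- and dual-resistant lines. Of the other 277, called distal, 230 had their midpoint inside a protein-coding gene and 47 lay between genes. The gene table gave no exons, so distal peaks inside genes are not divided into exonic and intronic. In order of position, the 13 protein-coding genes of the stretch include ASB3 (a substrate receptor of a cullin ubiquitin ligase), CHAC2 (a glutathione-degrading enzyme), ERLEC1 (a lectin of the endoplasmic reticulum), PSME4 (a proteasome activator), ACYP2 (an acylphosphatase), CIMIP6 (a ciliary microtubule inner protein), SPTBN1, EML6 (of a microtubule-binding family) and part of RTN4 (a shaper of endoplasmic reticulum tubules). A promoter peak was found for 9 of them. GPR75, GPR75-ASB3, TSPYL6 and RTN4 had no peak at a start inside the stretch. EML6 had no strand or start in the RefSeq promoter table, so a peak at either end of the gene was used for it.

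The DNA just upstream of 5 starts is shown because their peaks behaved differently: the third ACYP2 start was far more open in the paclitaxel- and dual-resistant lines, the second ACYP2 start was weaker in them, and the SPTBN1 and CIMIP6 starts stayed within 2-fold of control in each line. Sequences are 250 bases of the plus strand directly before the start (RefSeq, GRCh38.p14), 5′ to 3′, with searched motifs in capitals. The third ACYP2 start lies at chr2:54123033-54123282, the second at chr2:54115365-54115614, the first SPTBN1 start at chr2:54456077-54456326, the second SPTBN1 start at chr2:54558133-54558382 and the CIMIP6 start at chr2:54330634-54330883.
ACYP2, the third start: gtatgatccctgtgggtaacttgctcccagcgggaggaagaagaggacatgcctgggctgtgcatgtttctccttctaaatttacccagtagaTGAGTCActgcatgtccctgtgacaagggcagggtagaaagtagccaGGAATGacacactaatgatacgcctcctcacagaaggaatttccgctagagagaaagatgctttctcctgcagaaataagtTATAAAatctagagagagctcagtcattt
ACYP2, the second start: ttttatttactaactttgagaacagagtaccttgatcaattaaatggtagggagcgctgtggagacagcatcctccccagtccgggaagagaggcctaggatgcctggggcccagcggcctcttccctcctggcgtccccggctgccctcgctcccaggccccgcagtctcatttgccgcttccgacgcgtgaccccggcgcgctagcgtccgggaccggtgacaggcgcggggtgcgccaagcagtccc
SPTBN1, the first start: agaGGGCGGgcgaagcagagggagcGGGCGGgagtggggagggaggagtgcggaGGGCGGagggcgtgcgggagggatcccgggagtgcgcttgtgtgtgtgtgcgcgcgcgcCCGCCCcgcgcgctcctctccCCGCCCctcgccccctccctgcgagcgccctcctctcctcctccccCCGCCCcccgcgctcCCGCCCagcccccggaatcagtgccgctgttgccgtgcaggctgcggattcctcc
SPTBN1, the second start: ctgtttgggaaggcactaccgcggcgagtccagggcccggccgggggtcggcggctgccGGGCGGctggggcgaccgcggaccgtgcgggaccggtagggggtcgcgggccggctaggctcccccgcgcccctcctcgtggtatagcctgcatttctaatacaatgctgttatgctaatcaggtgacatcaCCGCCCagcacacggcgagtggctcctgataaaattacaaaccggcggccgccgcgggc
CIMIP6 start: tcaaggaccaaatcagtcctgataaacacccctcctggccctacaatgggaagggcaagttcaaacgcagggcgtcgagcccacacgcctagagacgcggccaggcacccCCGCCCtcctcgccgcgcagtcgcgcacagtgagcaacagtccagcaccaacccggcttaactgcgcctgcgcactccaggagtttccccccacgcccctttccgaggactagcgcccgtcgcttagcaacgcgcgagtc

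Searched on both strands, with overlaps allowed, were the GC box (GGGCGG), the CCAAT box, the ETS core (CCGGAAG), the AP-1 site (TGANTCA), the TATA box (TATAAA), the TEAD site (GGAATG), the RUNX core (TGTGGT) and the E-box (CACGTG). The third ACYP2 start held 1 AP-1 site, 1 TEAD site and 1 TATA box, which do not overlap, and had 46.4% G and C with 3 CpG. Among 34943 annotated promoters of the same length, 6.59% held the AP-1 letters, 11.9% the TEAD letters and 10.8% the TATA letters, and 29.4% had 3 CpG or fewer (median 11). The second ACYP2 start held none of the 8 motifs and had 63.6% G and C with 20 CpG. The first SPTBN1 start held 7 GC boxes and 30 CpG, the second 2 GC boxes and 29 CpG, and CIMIP6 1 GC box and 23 CpG, while 42.5% of all promoters held a GC box. The third ACYP2 start was thus the CpG-poor member of the 5. A match of letters is a description of the sequence and says nothing of whether a factor binds there.

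Distal peaks of the stretch were far more open in the paclitaxel- and dual-resistant lines than in control, while most promoter peaks were not. Summed over the 277 distal peaks, the level was 507 and 516 CPM in cisplatin-resistant, 975 and 986 CPM in paclitaxel-resistant, 1445 and 1292 CPM in dual-resistant and 392 and 386 CPM in control libraries. The groups did not overlap, and the dual-resistant mean was 3.52 times and the paclitaxel-resistant mean 2.52 times the control mean. The 13 promoter peaks together held 310 and 305 CPM in cisplatin-resistant, 351 and 341 CPM in paclitaxel-resistant, 313 and 312 CPM in dual-resistant and 260 and 278 CPM in control libraries. Their means were 1.14, 1.29 and 1.16 times control in the cisplatin-, paclitaxel- and dual-resistant lines.

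By log2(CPM + 0.5), the scale of each log2 difference below, the median over the 290 peaks was 0.82 in paclitaxel-resistant minus control cells and 1.59 in dual-resistant minus control cells. Over all peaks tested in the genome these medians were −0.14 and 0.08. The added 0.5 CPM understates differences of weak peaks. A peak was counted as 2-fold higher or lower when its log2 difference was at least 1 and no library of one group reached the range of the other. In paclitaxel-resistant cells 126 peaks were 2-fold higher than in control (background 5.76% of all tested peaks) and 15 were lower (background 8.24%). In dual-resistant cells 190 were 2-fold higher (background 8.2%) and 3 were lower (background 4.06%). Both lines were 2-fold above control at 124 peaks, 42.8% of the stretch (background 2.09%), and both below at 1 (background 2.14%), the second ACYP2 start. The rule for the stretch used these contrasts, so nothing is read from the counts. Windows of 5 Mb with at least 50 peaks numbered 579. By its median the stretch ranked 8 from the top for paclitaxel-resistant minus control and 2 for dual-resistant minus control. It ranked 106 for cisplatin-resistant minus control. The ranks of the paclitaxel- and dual-resistant lines rest on the contrasts of the rule, so nothing is read from them either.

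**Figure D1:**
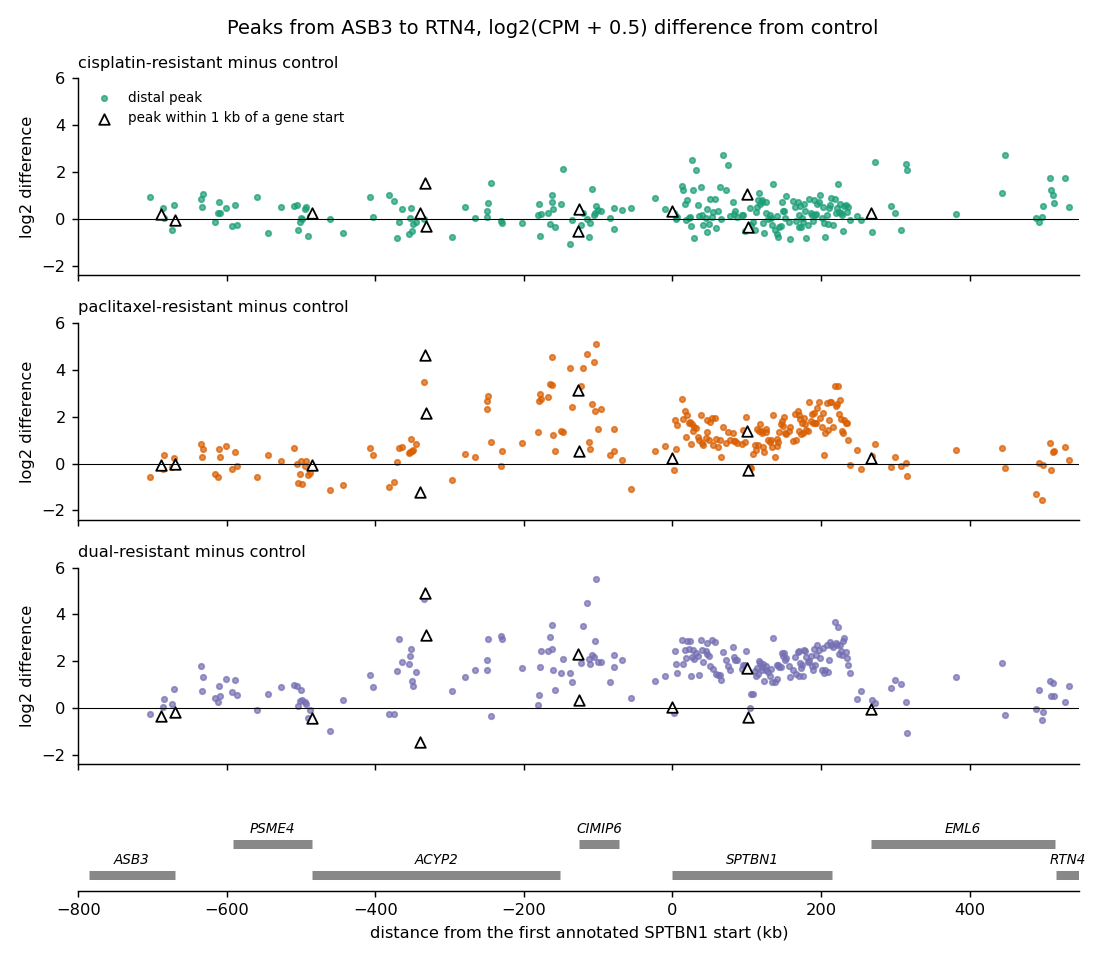
Log2 differences from control of the peaks from ASB3 to RTN4 against distance from the first SPTBN1 start, with 1 panel per resistant line, circles for distal peaks, triangles for promoter peaks (for EML6, a gene end) and genes below. In the paclitaxel- and dual-resistant panels the high values gather between ACYP2 and EML6, where 124 of 194 peaks were 2-fold higher in both lines, and triangles near 0 lie among them.

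The 124 peaks higher in both lines lay within 590 kb, from the beginning of the peak at 54103571 in ACYP2 to the end of the peak at 54693377 before EML6. The longer part of the stretch from the first ACYP2 start to EML6 held 194 peaks. Outside it, 0 of the other 96 peaks were 2-fold higher in paclitaxel-resistant cells and 18 were in dual-resistant cells. The 124 peaks had a median level of 1.204 CPM in cisplatin-resistant, 4.07 CPM in paclitaxel-resistant, 5.17 CPM in dual-resistant and 0.839 CPM in control cells. In control cells they were thus weak, between 0.0644 and 5.50 CPM. Of the 124, 81 lay in SPTBN1, 14 in ACYP2, 5 between ACYP2 and CIMIP6, 10 in CIMIP6 and 14 between SPTBN1 and EML6. Promoter peaks made up 4 of them.

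SPTBN1 held 113 peaks, which together cover 52.6% of its 215 kb. Neighbouring peaks in the gene began a median of 1647.5 bp apart, compared with 2365 bp in the stretch and 4167 bp in the genome. In paclitaxel-resistant cells 81 of the 113 were 2-fold above control and in dual-resistant cells 108, with 0 lower in either line. Their sum was 210 and 213 CPM in cisplatin-resistant, 443 and 449 CPM in paclitaxel-resistant, 693 and 600 CPM in dual-resistant and 161 and 158 CPM in control libraries. Levels of individual distal peaks were low: over the 111 distal peaks in SPTBN1 the median was 1.22 CPM in cisplatin-resistant, 3.33 CPM in paclitaxel-resistant, 4.71 CPM in dual-resistant and 0.908 CPM in control cells. Among the peaks listed, the gain was thus spread over many weak peaks along the gene rather than held by a few. Of the peaks of the stretch, 67.9% were named after a peak of dual-resistant cells and 0 after a peak of control cells. The part of this in the number of weak peaks was not tested. Dual-resistant library 1 was above library 2 at 77 of the 113 peaks, and whether this difference between libraries had a part in the levels was not tested.

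The strongest distal peaks in SPTBN1 by their mean in either line, chosen after values were seen, show this range. The peak at chr2:54502757-54503757 had 2.03 and 2.10 CPM in cisplatin-resistant, 8.26 and 9.66 CPM in paclitaxel-resistant, 19.5 and 16.4 CPM in dual-resistant and 2.47 and 4.25 CPM in control libraries. At chr2:54664910-54665910, near the end of the gene, the values were 4.50 and 4.79 CPM in cisplatin-resistant, 14.1 and 17.1 CPM in paclitaxel-resistant, 18.8 and 15.3 CPM in dual-resistant and 6.50 and 4.51 CPM in control libraries. In neither peak did the paclitaxel- or dual-resistant libraries overlap those of control. At chr2:54508588-54509588 levels were 1.13 and 1.17 CPM in cisplatin-resistant, 6.43 and 4.83 CPM in paclitaxel-resistant, 14.0 and 9.24 CPM in dual-resistant and 0.780 and 1.42 CPM in control libraries. There the dual-resistant libraries were the highest and the cisplatin-resistant libraries lay within the range of control.

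CIMIP6, upstream of SPTBN1, held fewer peaks, and a few tall ones carried its sum. The median of its 14 peaks was 3.38 CPM in paclitaxel-resistant, 4.06 CPM in dual-resistant and 0.614 CPM in control cells, close to that of the distal peaks in SPTBN1 in the paclitaxel-resistant line and below it in the dual-resistant line. The sum over its 14 peaks was 11.7 and 10.3 CPM in cisplatin-resistant, 138 and 137 CPM in paclitaxel-resistant, 136 and 121 CPM in dual-resistant and 9.88 and 7.72 CPM in control libraries, so the paclitaxel-resistant mean was 15.6 times and the dual-resistant mean 14.6 times the control mean. The tallest distal peak of the stretch, at chr2:54352807-54353807 inside CIMIP6, had 1.01 and 1.40 CPM in cisplatin-resistant, 39.7 and 36.7 CPM in paclitaxel-resistant, 54.8 and 49.3 CPM in dual-resistant and 0.780 and 0.515 CPM in control libraries. Its log2 difference from control was 5.09 in paclitaxel- and 5.53 in dual-resistant cells. At chr2:54341273-54342273, also in CIMIP6, the level was 0 and 1.05 CPM in cisplatin-resistant, 21.0 and 22.6 CPM in paclitaxel-resistant, 20.4 and 17.5 CPM in dual-resistant and 0.260 and 0.515 CPM in control libraries. Both peaks were at most 1.40 CPM in the cisplatin-resistant and control libraries. The third, at chr2:54335510-54336510, had 1.46 and 1.05 CPM in cisplatin-resistant, 23.2 and 24.0 CPM in paclitaxel-resistant, 15.3 and 16.2 CPM in dual-resistant and 1.56 and 0.515 CPM in control libraries. It was higher in paclitaxel-resistant than in dual-resistant libraries, without overlap.

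**Figure D2:**
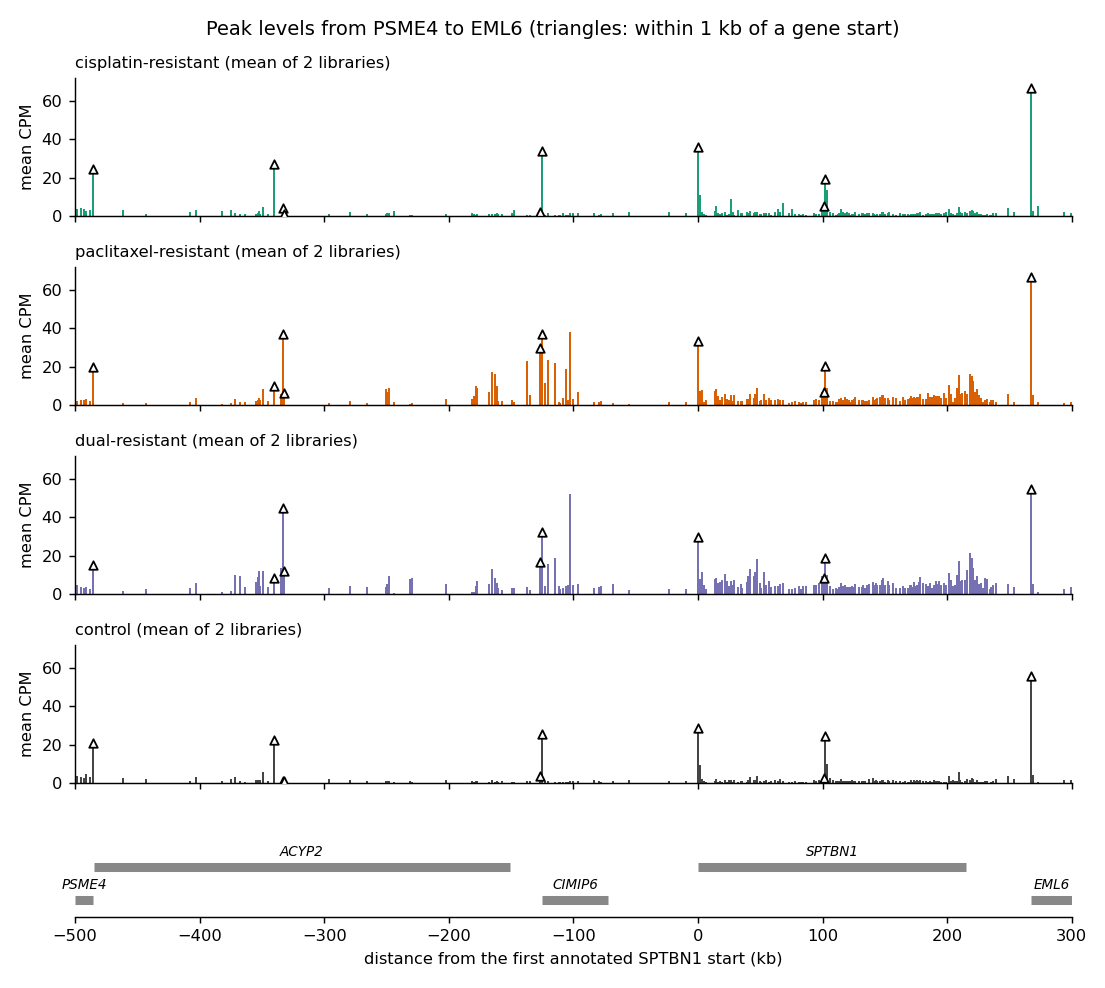
Mean CPM of each peak from PSME4 to EML6 against distance from the first SPTBN1 start, with 1 panel per group (mean of 2 libraries), triangles for promoter peaks (for EML6, a gene end) and genes below. Promoter bars such as the first SPTBN1 start, between 25.7 and 39.5 CPM in single libraries, are similar in the 4 panels, while tall distal bars in CIMIP6 and a carpet of low bars over SPTBN1 appear in the paclitaxel- and dual-resistant panels.

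In ACYP2, which spans 334 kb before CIMIP6, 16 of 39 peaks were 2-fold higher in paclitaxel-resistant cells and 27 in dual-resistant cells. At chr2:54290294-54291294 the level was 1.01 and 0.818 CPM in cisplatin-resistant, 15.7 and 18.1 CPM in paclitaxel-resistant, 12.6 and 13.5 CPM in dual-resistant and 1.43 and 0.901 CPM in control libraries. Its neighbour at chr2:54293009-54294009 had 0.563 and 0.818 CPM in cisplatin-resistant, 15.7 and 16.9 CPM in paclitaxel-resistant, 6.43 and 9.56 CPM in dual-resistant and 0 and 0.515 CPM in control libraries. Both lie toward the end of ACYP2, and both were highest in paclitaxel-resistant libraries. By contrast the peak at chr2:54120852-54121852, just before the third start, was highest in dual-resistant libraries: it had 1 and 0 reads in cisplatin-resistant libraries, 51 and 48 reads in paclitaxel-resistant libraries, 115 and 120 reads in dual-resistant libraries and 0 and 1 reads in control libraries.

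Between SPTBN1 and EML6, 14 of 17 peaks were 2-fold higher in paclitaxel-resistant cells and 15 in dual-resistant cells. Their sum was 27.5 and 24.2 CPM in cisplatin-resistant, 95.8 and 93.1 CPM in paclitaxel-resistant, 151 and 122 CPM in dual-resistant and 20.0 and 19.8 CPM in control libraries. The tallest of them by its mean in each of these 2 lines, at chr2:54674060-54675060, had 2.81 and 2.34 CPM in cisplatin-resistant, 15.5 and 16.3 CPM in paclitaxel-resistant, 24.98 and 17.5 CPM in dual-resistant and 1.95 and 0.644 CPM in control libraries. It lies just past the end of SPTBN1. At chr2:54678398-54679398, further on, a peak had 1.46 and 1.52 CPM in cisplatin-resistant, 6.68 and 6.63 CPM in paclitaxel-resistant, 7.17 and 7.42 CPM in dual-resistant and 0 and 0.515 CPM in control libraries. Each of these 2 peaks was higher in the 6 resistant libraries than in the 2 control libraries. The next peak, at chr2:54679538-54680538, holds the start of the antisense RNA gene SPTBN1-AS2 and had 2.93 and 1.29 CPM in cisplatin-resistant, 8.26 and 8.09 CPM in paclitaxel-resistant, 10.9 and 8.06 CPM in dual-resistant and 1.95 and 1.16 CPM in control libraries. Its paclitaxel- and dual-resistant libraries were above control, and its cisplatin-resistant libraries overlapped control.

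The SPTBN1 starts, in the middle of the gained peaks, differed from control by less than 2-fold in each line. At the first SPTBN1 start (chr2:54455685-54456685) the level was 32.8 and 39.5 CPM in cisplatin-resistant, 32.5 and 33.9 CPM in paclitaxel-resistant, 28.2 and 31.0 CPM in dual-resistant and 25.7 and 31.4 CPM in control libraries. Its log2 difference from control was 0.22 in paclitaxel- and 0.05 in dual-resistant cells, and the dual-resistant libraries lay within the range of control. At the second SPTBN1 start (chr2:54558082-54559082), which also holds the start of the antisense RNA gene SPTBN1-AS1, the level was 21.2 and 17.8 CPM in cisplatin-resistant, 20.3 and 20.6 CPM in paclitaxel-resistant, 20.4 and 16.9 CPM in dual-resistant and 23.8 and 25.4 CPM in control libraries. Control was the highest group there, with log2 differences of −0.26 in paclitaxel- and −0.40 in dual-resistant cells. ATAC-seq does not tell strands apart, so SPTBN1 and SPTBN1-AS1 share this value.

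Most other promoter peaks differed little too. The CIMIP6 start (chr2:54330311-54331311) had 34.9 and 32.5 CPM in cisplatin-resistant, 39.9 and 34.4 CPM in paclitaxel-resistant, 33.1 and 31.3 CPM in dual-resistant and 21.7 and 29.3 CPM in control libraries, so the libraries of each resistant line lay above those of control by a small step. The shared start of ASB3 and ERLEC1 (chr2:53786423-53787423) had 42.2 and 45.1 CPM in cisplatin-resistant, 43.5 and 44.4 CPM in paclitaxel-resistant, 38.5 and 41.5 CPM in dual-resistant and 43.0 and 46.6 CPM in control libraries. The strongest promoter peaks of ASB3 and ERLEC1, CHAC2, PSME4, CIMIP6, SPTBN1 and EML6 differed from control by −0.06 to 0.55 in paclitaxel- and by −0.42 to 0.34 in dual-resistant cells on the log2 scale. The largest of these levels was at EML6 (chr2:54723108-54724108), with 68.3 and 65.8 CPM in cisplatin-resistant, 68.7 and 64.7 CPM in paclitaxel-resistant, 53.5 and 56.6 CPM in dual-resistant and 58.1 and 54.1 CPM in control libraries.

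**Figure D3:**
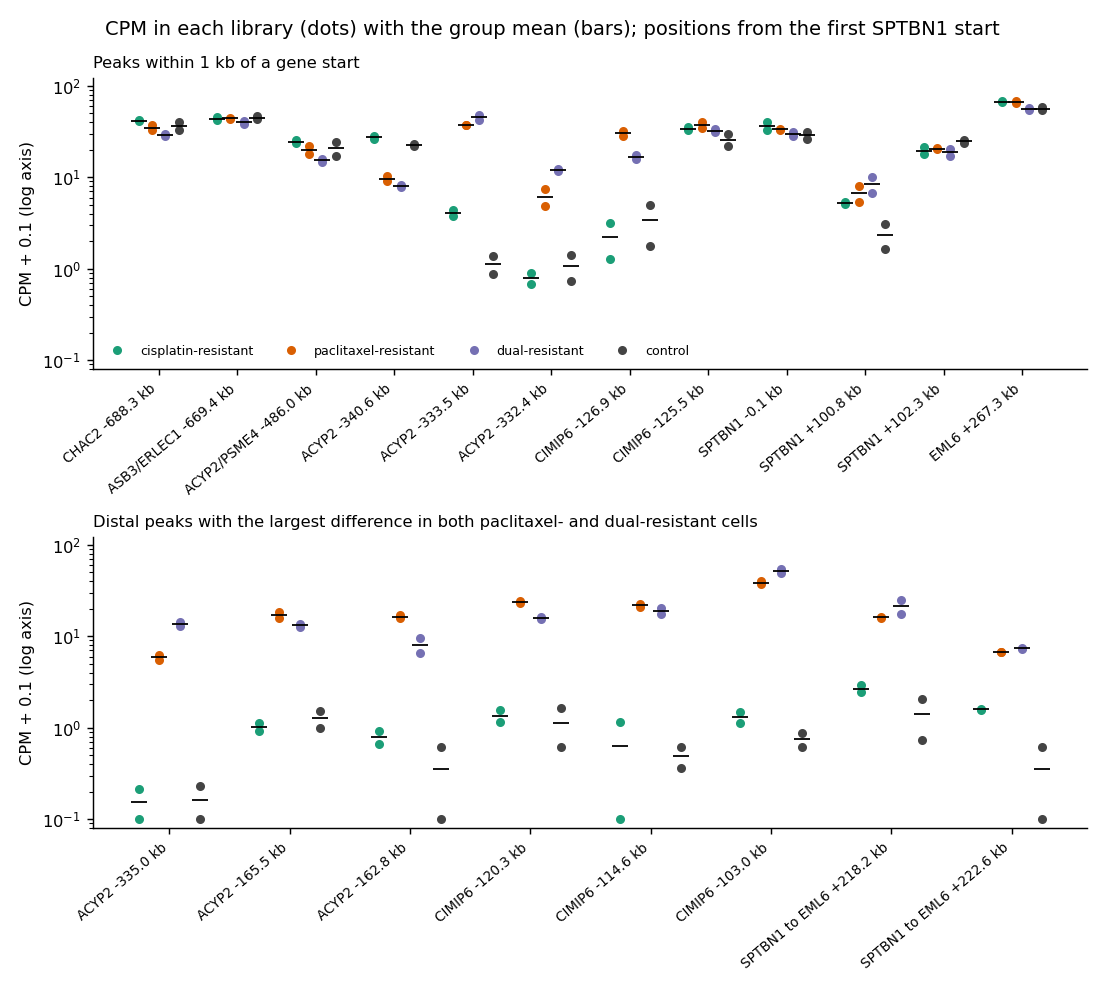
CPM + 0.1 of each library on a log axis, with dots for libraries and bars for group means, at the promoter peaks from ASB3 to EML6 (upper panel, EML6 by a gene end) and at the 8 named distal peaks with the largest difference in both lines (lower panel). Dots of the 4 groups lie close together at the first SPTBN1 start, between 25.7 and 39.5 CPM, and far apart at the third ACYP2 start and at the distal peaks.

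ACYP2 was the exception, with starts that went in opposite directions. The third start (chr2:54122324-54123324) had 4.28 and 3.62 CPM in cisplatin-resistant, 37.0 and 36.6 CPM in paclitaxel-resistant, 48.1 and 42.1 CPM in dual-resistant and 0.780 and 1.29 CPM in control libraries. The log2 difference from control was 4.63 in paclitaxel- and 4.91 in dual-resistant cells. Its second start, upstream at chr2:54115221-54116221, had 28.4 and 26.3 CPM in cisplatin-resistant, 8.98 and 10.1 CPM in paclitaxel-resistant, 7.79 and 8.17 CPM in dual-resistant and 22.1 and 22.9 CPM in control libraries. The log2 difference was −1.20 in paclitaxel- and −1.44 in dual-resistant cells. Control cells thus had more signal at the second start than at the third, and those lines more at the third than at the second. The first start, shared with PSME4 at chr2:53969828-53970828, had 25.2 and 23.5 CPM in cisplatin-resistant, 21.7 and 17.8 CPM in paclitaxel-resistant, 14.6 and 15.7 CPM in dual-resistant and 24.4 and 17.1 CPM in control libraries. Paclitaxel-resistant libraries lay within the range of control there, and dual-resistant libraries below it.

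The other 3 promoter peaks that were 2-fold higher in both lines lay beside a start rather than on it. A peak centred 654 bp downstream of the third ACYP2 start (chr2:54123437-54124437) had 0.788 and 0.585 CPM in cisplatin-resistant, 4.74 and 7.30 CPM in paclitaxel-resistant, 12.1 and 11.5 CPM in dual-resistant and 1.30 and 0.644 CPM in control libraries. A peak centred 1444 bp upstream of the CIMIP6 start (chr2:54328940-54329940) had 3.04 and 1.17 CPM in cisplatin-resistant, 31.9 and 28.0 CPM in paclitaxel-resistant, 17.4 and 15.8 CPM in dual-resistant and 1.69 and 4.89 CPM in control libraries. A peak centred 1249 bp upstream of the second SPTBN1 start (chr2:54556634-54557634) had 5.29 and 5.03 CPM in cisplatin-resistant, 7.89 and 5.28 CPM in paclitaxel-resistant, 6.68 and 9.99 CPM in dual-resistant and 2.99 and 1.54 CPM in control libraries. With a window of 2.5 kb in place of 1 kb, 8 peaks counted as promoter peaks were 2-fold higher in paclitaxel-resistant cells and 9 in dual-resistant cells.

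In EML6, beyond the gained part, the paclitaxel- and dual-resistant sums differed less from control than in SPTBN1. Its 19 peaks summed to 127 and 132 CPM in cisplatin-resistant, 97.1 and 100.2 CPM in paclitaxel-resistant, 109 and 106 CPM in dual-resistant and 92.4 and 82.8 CPM in control libraries. Their means were 1.48, 1.13 and 1.22 times control in the cisplatin-, paclitaxel- and dual-resistant lines. In paclitaxel-resistant cells 0 of these peaks were 2-fold higher and 2 lower, and in dual-resistant cells 6 were higher and 1 lower. In the 5 Mb before the stretch 262 peaks, and in the 5 Mb after it 138 peaks, had mean sums 1.0 and 1.01 times control in paclitaxel-resistant cells and 1.04 and 1.09 times control in dual-resistant cells. Cisplatin-resistant cells were higher there, at 1.49 and 1.35 times control.

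**Figure D4:**
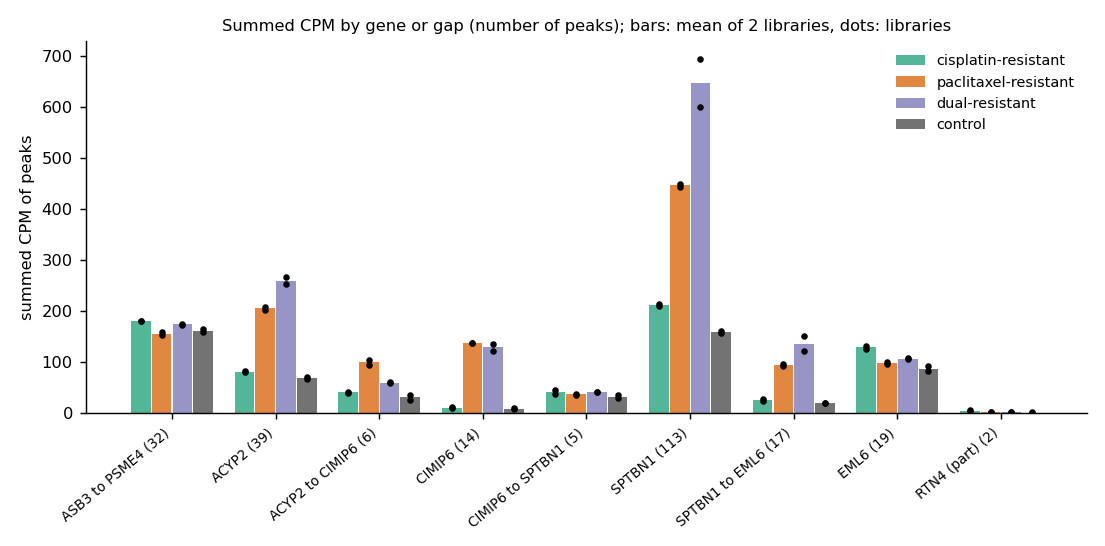
Summed CPM of the peaks of each gene or gap from ASB3 to RTN4, in genomic order with the number of peaks in parentheses, as bars for the mean of 2 libraries and dots for libraries. SPTBN1 holds the tallest bars, 646.7 CPM in dual-resistant, 446 CPM in paclitaxel-resistant, 211 CPM in cisplatin-resistant and 159 CPM in control cells, while ASB3 to PSME4 is nearly level.

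The cisplatin-resistant line was not used to choose the stretch, but its test against control shares the control libraries with the contrasts that were. By limma with Benjamini-Hochberg adjustment over 158698 peaks, 44 of the 290 peaks rose (15.2%, background 18.3%) and 5 fell (1.72%, background 14.9%) at adjusted p under 0.05. The share that rose was near the background, and the share that fell was below it. Distal peaks of the stretch had a median of only 1.04 CPM in control cells. Whether such low levels limited calls of a fall was not tested. With quantile scaling 38 rose and 13 fell. In the gained part from ACYP2 to EML6, 27 of 194 peaks rose (13.9%, below the background). Among the 124 peaks gained in both other lines 22 rose (background 18.3%) and 1 fell (background 14.9%). These 124 were picked for control libraries below those of the other lines, and the same control libraries enter this test. Nothing is therefore read from these 2 counts. The count that rose was 27 without cisplatin-resistant library 2, and the count that fell was 3 without dual-resistant library 1 and 8 without control library 1. In the flanks 99 of 262 peaks before the stretch (37.8%) and 46 of 138 after it (33.3%) rose, both above the background.

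Among promoters in cisplatin-resistant cells 5 of 13 rose by limma (38.5%, background 10.5% of all promoter peaks), and 8 with quantile scaling. The third ACYP2 start rose by 1.55 (log2, SE 0.209, adjusted p = 1.23e-09), less than in the other lines, and both cisplatin-resistant libraries were above both control libraries. The peak beside the second SPTBN1 start rose by 1.08 (SE 0.286, adjusted p = 0.00154), the CIMIP6 start by 0.41 (adjusted p = 0.00826), the first SPTBN1 start by 0.33 (adjusted p = 0.0322) and EML6 by 0.26 (adjusted p = 0.0267). The second ACYP2 start differed by 0.27 with adjusted p = 0.226. Called lower by limma were 0 promoter peaks, with 1 at an unadjusted p under 0.05, and 0 by edgeR and by DESeq2.

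In SPTBN1 17 of 113 peaks rose in cisplatin-resistant cells by limma (15.0%, background 18.3%), a share near the background. By limma 0 fell (background 14.9%), with 3 at an unadjusted p under 0.05, 0 by edgeR and 0 by DESeq2. The peak at chr2:54482506-54483506 had 9.68 and 8.07 CPM in cisplatin-resistant, 5.95 and 3.82 CPM in paclitaxel-resistant, 6.80 and 6.88 CPM in dual-resistant and 0.650 and 1.80 CPM in control libraries. It rose by 2.52 in cisplatin-resistant cells (log2, SE 0.302, adjusted p = 2.32e-11). Another, at chr2:54524168-54525168, had 6.30 and 7.13 CPM in cisplatin-resistant, 2.67 and 2.70 CPM in paclitaxel-resistant, 3.46 and 7.63 CPM in dual-resistant and 0.260 and 1.03 CPM in control libraries, and rose by 2.74 (SE 0.361, adjusted p = 6.59e-10). At both SPTBN1 peaks the 3 resistant lines were each above control in 2 of 2 libraries.

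In EML6 9 of 19 peaks rose in cisplatin-resistant cells (47.4%, background 18.3%). Its peak at chr2:54903651-54904651 had 9.34 and 7.83 CPM in cisplatin-resistant, 0.728 and 0.674 CPM in paclitaxel-resistant, 0.495 and 0.752 CPM in dual-resistant and 1.30 and 0.515 CPM in control libraries. It rose by 2.74 in cisplatin-resistant cells (log2, SE 0.44, adjusted p = 2.14e-07), and the paclitaxel- and dual-resistant lines stayed near control. The peak at chr2:54728408-54729408 had 4.95 and 5.61 CPM in cisplatin-resistant, 0.971 and 1.91 CPM in paclitaxel-resistant, 1.11 and 0.430 CPM in dual-resistant and 0.780 and 0.386 CPM in control libraries, and rose by 2.44 (adjusted p = 5.11e-06). The ACYP2 peak at chr2:54084554-54085554 fell by 0.80 with adjusted p = 0.0485, a call that 10 alternative settings did not keep.

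Dual-resistant and paclitaxel-resistant cells were compared without the control libraries, though both had been used to choose the stretch. By limma 50 peaks were higher in dual-resistant cells (17.2%, background 14.9%) and 12 were lower (4.14%, background 7.44%). Both shares were within a few percentage points of the background. The median log2 difference was 0.56 in the stretch and 0.23 over all tested peaks, and the median over all peaks lay at 0.03 after median-ratio scaling. After that scaling the counts were 33 higher and 20 lower, as with edgeR. Leaving out 1 library of either line brought the count higher to between 18 and 31 and the count lower to between 3 and 5.

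Called peaks lay in several places. In ACYP2 13 of 39 peaks were higher (33.3%, background 14.9%) and 6 lower (15.4%, background 7.44%). Neighbouring peaks at chr2:54224609-54225609 and chr2:54225943-54226943 had 7.79 and 7.74 CPM, and 8.41 and 7.52 CPM, in dual-resistant libraries, against 0 and 1.12 CPM, and 1.09 and 1.01 CPM, in paclitaxel-resistant libraries (log2 differences 3.20 and 2.45, adjusted p = 1.91e-07 and 7.42e-06). Nearer the beginning of ACYP2, the peak at chr2:54087867-54088867 had 9.15 and 8.92 CPM in dual-resistant and 1.21 and 1.69 CPM in paclitaxel-resistant libraries (log2 difference 2.30, adjusted p = 9.87e-06). These ACYP2 peaks were near the control level in paclitaxel-resistant cells.

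Of the 12 peaks that were lower in dual-resistant cells, 6 lay in ACYP2, 3 between ACYP2 and CIMIP6, 2 in CIMIP6 and 1 at EML6. Between ACYP2 and CIMIP6 the peak at chr2:54318357-54319357 had 4.08 and 2.90 CPM in dual-resistant, 23.2 and 23.2 CPM in paclitaxel-resistant and 1.17 and 0.644 CPM in control libraries. Its log2 difference between the lines was −2.58 (adjusted p = 2.27e-08). Inside CIMIP6 the peak at chr2:54349893-54350893 had 3.34 and 4.41 CPM in dual-resistant and 21.7 and 15.6 CPM in paclitaxel-resistant libraries (log2 difference −2.13, adjusted p = 3.14e-06). The CIMIP6 peak at chr2:54333145-54334145 had 4.45 and 3.76 CPM in dual-resistant and 11.7 and 11.5 CPM in paclitaxel-resistant libraries (log2 difference −1.39, adjusted p = 0.00407). In ACYP2 the peak at chr2:54275813-54276813 had 0.866 and 0.430 CPM in dual-resistant and 4.98 and 3.71 CPM in paclitaxel-resistant libraries (log2 difference −2.09, adjusted p = 0.000426). Of the 13 promoter peaks 2 were called lower by limma (15.4%, background 16.7% of all promoter peaks), 7 by edgeR, 6 by DESeq2, 8 with median-ratio scaling and 0 with quantile scaling. By limma 1 was called higher, and 0 by edgeR, DESeq2 or either scaling. The peak upstream of the CIMIP6 start was lower in dual-resistant cells by a log2 difference of −0.83 (adjusted p = 0.0123), and EML6 by −0.27 (adjusted p = 0.0254).

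In SPTBN1 10 of 113 peaks were higher in dual-resistant cells (8.85%, background 14.9%) and 0 lower (background 7.44%) by limma. At an unadjusted p under 0.05 these counts were 33 and 0. With edgeR 5 were higher and 0 lower, and with DESeq2 3 and 0. With median-ratio or quantile scaling 4 were higher and 0 lower. The dual-resistant mean was above the paclitaxel-resistant mean at 104 of the 113 peaks. The median log2 difference over all tested peaks was itself 0.23, so nothing is read from this count. Among the strongest distal peaks of SPTBN1, chosen by their levels and so given with no test, the log2 difference was 0.97 at chr2:54502757-54503757. At chr2:54497570-54498570 it was 1.18, with 14.3 and 11.7 CPM in dual-resistant libraries and 4.25 and 6.97 CPM in paclitaxel-resistant libraries. At the third ACYP2 start and at the tallest CIMIP6 peak, differences of 0.29 and 0.44 did not pass the test (adjusted p = 0.345 and 0.176).

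**Figure D5:**
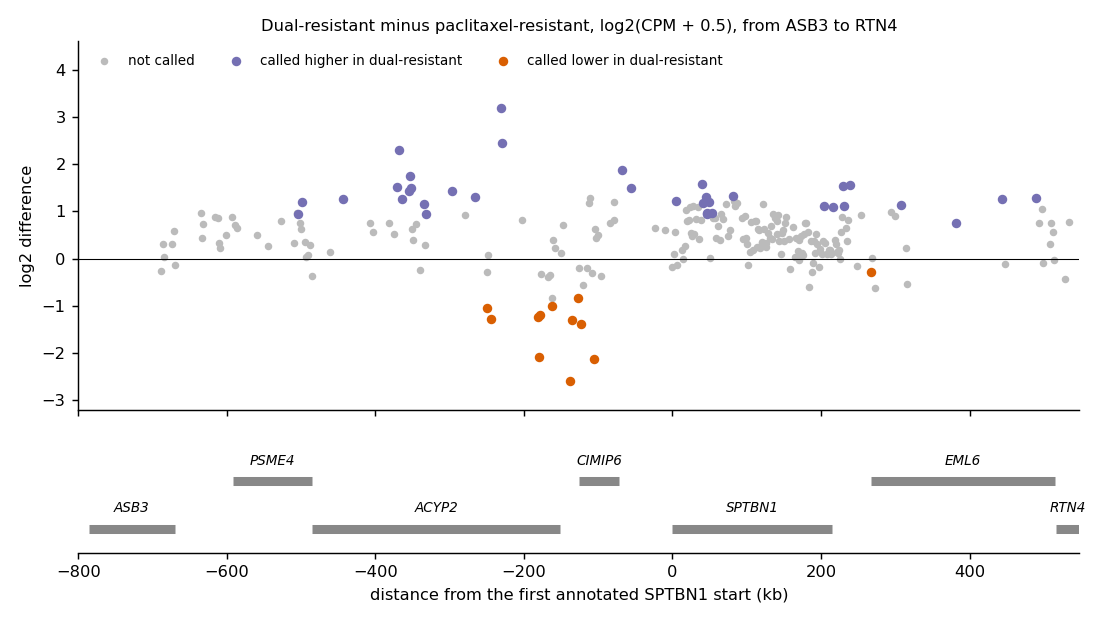
Log2 difference of dual-resistant minus paclitaxel-resistant cells for each peak from ASB3 to RTN4 against distance from the first SPTBN1 start, coloured where called by limma at adjusted p under 0.05, with genes below. Peaks called lower in dual-resistant cells lie around the end of ACYP2 and CIMIP6 and at EML6, while those called higher lie in several places along the stretch, ACYP2 and SPTBN1 among them.

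The promoters of beta-II spectrin's partners encoded elsewhere were read in the same way. Of 22 genes of the spectrin skeleton, 20 had a tested promoter peak, and by limma 2 rose and 5 fell in the cisplatin-resistant line, 2 rose and 6 fell in the paclitaxel-resistant line, and 0 rose and 3 fell in the dual-resistant line. The background over 14210 strongest promoter peaks was 10.7% higher and 28.8% lower in the cisplatin-resistant line, 12.6% and 10.3% in the paclitaxel-resistant line and 4.78% and 15% in the dual-resistant line. The counts in the cisplatin- and dual-resistant lines were thus near the background. In the paclitaxel-resistant line the 2 of 20 that rose were near it too. The 6 of 20 that fell there were above the background of 10.3%, and edgeR and DESeq2 each called 5. For the 0 that rose in dual-resistant cells, 0 passed an unadjusted p under 0.05 and edgeR and DESeq2 each called 0. The list's median log2 difference was −0.19, −0.17 and −0.17 in the cisplatin-, paclitaxel- and dual-resistant lines, beside −0.19, 0.01 and −0.14 over all these promoter peaks.

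Single members of the skeleton moved. The largest difference was at EPB41L3, a protein of the 4.1 family, with 17.4 and 11.1 CPM in cisplatin-resistant, 2.19 and 0.787 CPM in paclitaxel-resistant, 2.84 and 1.505 CPM in dual-resistant and 13.8 and 13.4 CPM in control libraries. It fell by 2.92 in paclitaxel-resistant (adjusted p = 7.08e-15 by limma) and by 2.44 in dual-resistant cells. ADD2, the gene of beta-adducin, fell by 2.35 in paclitaxel- and by 1.01 in dual-resistant cells, and ANK2, an ankyrin, by 1.24 and 0.58. ANK3 fell by 2.12 in paclitaxel-resistant cells and differed by −0.29 in dual-resistant cells (adjusted p = 0.523 by limma). EPB41L2 rose by 1.08 in paclitaxel-resistant cells, and differed by −0.07 in dual-resistant cells. Of the EML family, the microtubule-binding relatives of EML6, 5 of 5 had a promoter peak. In cisplatin-resistant cells EML1 rose and EML2 and EML5 fell. EML3 and EML4 fell in both paclitaxel-resistant cells (by 0.40 and 0.43) and dual-resistant cells (by 0.40 and 0.63), and 0 EML promoters rose in either line by limma, at an unadjusted p under 0.05, by edgeR or by DESeq2, though edgeR and DESeq2 called 0 of the falls in paclitaxel-resistant cells.

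Each consensus peak carries a name that points to a peak of 1 line, which bears on which line shaped the list. In the stretch 67.9% of names were from dual-resistant, 17.6% from paclitaxel-resistant and 14.5% from cisplatin-resistant cells, with 0 from control. Over all peaks these shares were 39.5%, 23.0%, 34.3% and 3.18%. Of the 124 peaks higher in both lines, 80 carried a dual-resistant, 41 a paclitaxel-resistant and 3 a cisplatin-resistant name. In the stretch 35.5% of peaks were named as further summits of a broader peak, beside 23.8% of all peaks. The part of this naming in the levels was not tested.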

How the data were processed

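ATAC-seq libraries of 4 groups of A2780 cells (2 each) were analysed. Per the submitters' processing notes, Bowtie2, Picard, MACS2 and the build hg38 were used; versions, shifting of reads and merging of peaks were not given in the sources used here. The deposited values are CPM in 159451 consensus peaks, scaled by the authors so that each library sums to a common total, which hides a change shared by all peaks. They were whole multiples of a fixed step, and whole reads were recovered for 100% of values (tolerance 0.01 read). The 158698 peaks that reached 1 CPM in 2 or more libraries were fitted with limma 3.58.1 (R 4.3.3) on log2(CPM + 0.5), all 4 groups together, with a trend in the variance (residual degrees of freedom 4, prior 98.5), after a check on simulated data. Most of each SE comes from that trend, not from the peak's own libraries. On the recovered reads, edgeR 4.0.16 called 29694 peaks higher and 18502 lower in cisplatin-resistant minus control cells (limma 29093 and 23664), and 13269 and 20170 in dual-resistant minus paclitaxel-resistant cells (limma 23681 and 11803). DESeq2 1.42.0, other pseudocounts, filters, scalings, a replicate block and each library left out were alternatives. An exact permutation test of 2 libraries against 2 cannot go below p = 0.333, so sums have no test. Named peaks followed a rule: the strongest promoter peak of each gene, the 8 higher and 4 lower distal peaks with the largest difference in both lines (1 lower peak qualified), up to 4 called peaks per direction and test, and the strongest peak in ACYP2, SPTBN1 and EML6. Some peaks and marker genes are not reported here. Other promoter peaks, 4 SPTBN1 peaks and the peak at the SPTBN1-AS2 start were added after their values were seen. The stretch, the members and the gene lists were chosen with earlier results of these data known. Sequences are from RefSeq, and no genome sequence of the peaks was used here.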

Additional observations from a re-analysis of the deposited data

How the results depend on the processing

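Tests and counts of calls were recomputed with pseudocounts of 0.1 and 1, no filter or at least 3 CPM in 2 libraries, quantile and median-ratio scaling, a fit of only the 2 groups compared, edgeR, DESeq2, a replicate block and each library left out. The 2-fold counts were recomputed with the same pseudocounts, filters, scalings and left-out libraries and a promoter window of 2.5 kb, and summed CPM with the scalings, left-out libraries and window. No recomputed test of a named peak changed its sign. Values not named here stayed within 1.5 times for counts and within 1 SD for sums, and the cause of the shifts below was not tested. Peaks that fell in cisplatin-resistant cells (5) numbered 3 with either pseudocount, median-ratio scaling, 2 groups or edgeR, 13 with quantile scaling, 2 with DESeq2 and 3 to 8 with a library left out, and those that rose (44) 27 to 42. Peaks higher in dual-resistant than paclitaxel-resistant cells (50) numbered 27 with quantile scaling, 33 with median-ratio scaling or edgeR, 76 with 2 groups, 20 with DESeq2 and 18 to 57 with a library left out. Those lower (12) numbered 5 with a pseudocount of 0.1, 20 with median-ratio scaling or edgeR and 3 to 13 with a library left out. Library numbers did not pair the samples (correlations of same-numbered deviations from −0.0006 to 0.0033), and the replicate block gave 49 calls in cisplatin-resistant minus control cells, as without it, and 63 in place of 62 in dual-resistant minus paclitaxel-resistant cells. Distal peaks 2-fold lower than control numbered 5 (pseudocount 1) and 7 (3 CPM) in place of 14 in paclitaxel-resistant cells (11 to 17 with a library left out), and 0 and 1 in place of 2 in dual-resistant cells (0 to 4, with 0 without dual-resistant library 1, 4 without library 2 and 1 without control library 2). Promoter peaks 2-fold higher became 8 and 9 with the 2.5 kb window. Summed distal CPM with quantile scaling, median-ratio scaling and the 2.5 kb window became 462, 534 and 467 for the cisplatin line, 1072, 1064 and 917 for the paclitaxel line and 403, 375 and 354 for control, and with median-ratio scaling 1249 for the dual line. Summed promoter CPM became 325, 321 and 352 for the cisplatin line, 318, 376 and 410 for the paclitaxel line, 330, 285 and 389 for the dual line, and 304 for control with the 2.5 kb window. Among the 25 spectrin and EML promoters, those that rose in cisplatin-resistant cells (3) numbered 0 without cisplatin-resistant library 1 or control library 2 and 1 without cisplatin-resistant library 2, up to 3, and those that fell (7) 4 with DESeq2 and 3 without cisplatin-resistant library 1, up to 7. In paclitaxel-resistant cells those that rose (2) numbered 1 with a pseudocount of 0.1, with quantile scaling or without paclitaxel-resistant library 1 or either control library, and up to 2. Those that fell (8) numbered 5 with median-ratio scaling, edgeR or DESeq2, and 5 to 8 with a library left out (5 without either control library). In dual-resistant cells 1 in place of 0 rose with quantile scaling, and those that fell (5) numbered 8 with median-ratio scaling, 9 with edgeR, and 2 to 5 with a library left out (2 without dual-resistant library 2 or control library 2). Of 216 recomputed tests of 12 named peaks, 13 lost the call: 10 at chr2:54084554-54085554, 1 at chr2:54224609-54225609 (DESeq2) and 2 at chr2:54333145-54334145 (without paclitaxel-resistant library 1 or dual-resistant library 2). Levels under about 0.4 CPM cannot be told from 0 at this depth.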
